A study of Mus musculus with 14 samples.

Results

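The genes described here are 41 mouse genes that act in meiotic recombination and chromosome synapsis, and the measurement is where DMC1-bound DNA was found in and around them. They were taken as a list of gene names and matched by symbol in the GENCODE M21 annotation of GRCm38, where all 41 were present among 21755 protein-coding genes on chromosomes 1 to 19 and X. The list was made by gene function, without a rule on measured values, but with earlier results of these data known. The list holds genes for DNA double-strand break (DSB) formation, the chromosome axis, strand exchange, crossovers, the synaptonemal complex, cohesin and telomere attachment, with a small set of germ cell genes.

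DMC1 ChIP-SSDS, an immunoprecipitation of DMC1 followed by sequencing of the single-strand DNA it holds, was done on whole testes with a goat anti-DMC1 antibody. *Hells* CTRL mice carried 1 floxed and 1 deleted *Hells* allele (*Hells* fl/Δ) without Cre, were 5 weeks old and gave 2 testes per replicate. *Hells* cKO mice carried the same alleles with the *Stra8*-iCre transgene (*Hells* fl/Δ;*Stra8*-iCre), were 9 weeks old and gave 3 testes per replicate. The *Hells* alleles came from a C57BL/6N line with the Dom2 allele of *Prdm9*, and the controls too carried 1 deleted *Hells* allele. The labels call the mice of both genotypes adults, so genotype and age cannot be told apart. Cre was driven by the *Stra8* promoter, which is active in germ cells from before meiosis, and the authors name incomplete deletion in some spermatocytes as a possible source of residual HELLS, which was not tested here. The 2 replicates of each genotype were merged by the authors into 1 peak list, so that there was no replicate spread, no test between genotypes was possible and all values below describe these 2 lists. Nor do the lists measure expression, so the loss of *Hells* and the cell types in the samples could not be checked in them.

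Meiotic recombination starts with DSBs made by SPO11 and its partners on chromosome axes. The ends are resected, and DMC1 assembles on the single-strand DNA to search for the homologous chromosome. In mice the histone methyltransferase PRDM9 directs DSBs to hotspots that mostly lie away from promoters, and HELLS is a chromatin remodeler that acts with it. Without PRDM9, DSBs form at sites such as promoters that carry H3K4me3 by other means. The genes of the recombination machinery are themselves transcribed in spermatocytes.

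The lists held 11133 peaks for *Hells* CTRL and 17117 for *Hells* cKO. Each peak has a strength, the authors' score, which was 63 in the median for *Hells* CTRL (range 11 to 5547) and 31 for *Hells* cKO (range 5 to 3299). By the methods of the study, DMC1 signal was not comparable in size between the genotypes, so each strength is given with its percentile in its own list (100 is the strongest). The peak position is the center of the deposited interval. A start-site peak is a peak with its center within 1 kb of any annotated transcript start of the gene, and a gene-body peak lies inside the gene but over 1 kb from all its starts. The principal start is that of 1 representative transcript per gene. How many reads a strength stands for is not known. In whole testes, a change in the share of spermatocytes that carry DMC1 cannot be told apart from a change in the DMC1-bound DNA of each cell.

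The sequence before the start sites of some members is shown first, because most of the members' *Hells* cKO peaks were centered near a start. The next lines give the 230 bases before the principal start, read from the GRCm38.p6 reference genome (RefSeq copy) in the direction of transcription, with CpG dinucleotides in capitals. The first 3 genes had the highest *Hells* cKO percentiles, and *Sycp1* holds a PCR site of the study. These bases are not those at the peak centers, which lay downstream of the principal start. The distance was 196 bp for *Syce1*, 418 bp for *Dazl*, 186 bp for *Mei4* and 447 bp for *Sycp1*.
Syce1 promoter (chr7:140787853-140788082, minus strand): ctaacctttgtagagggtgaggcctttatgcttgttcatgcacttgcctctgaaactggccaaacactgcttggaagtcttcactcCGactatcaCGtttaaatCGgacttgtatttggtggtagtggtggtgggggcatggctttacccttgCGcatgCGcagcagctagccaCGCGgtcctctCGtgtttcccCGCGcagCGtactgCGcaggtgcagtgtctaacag
Dazl promoter (chr17:50293637-50293866, minus strand): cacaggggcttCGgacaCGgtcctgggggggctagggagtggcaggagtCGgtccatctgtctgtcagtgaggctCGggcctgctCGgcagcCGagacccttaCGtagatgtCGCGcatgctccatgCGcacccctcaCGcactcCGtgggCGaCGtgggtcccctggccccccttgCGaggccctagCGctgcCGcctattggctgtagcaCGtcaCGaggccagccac
Mei4 promoter (chr9:81863440-81863669, plus strand): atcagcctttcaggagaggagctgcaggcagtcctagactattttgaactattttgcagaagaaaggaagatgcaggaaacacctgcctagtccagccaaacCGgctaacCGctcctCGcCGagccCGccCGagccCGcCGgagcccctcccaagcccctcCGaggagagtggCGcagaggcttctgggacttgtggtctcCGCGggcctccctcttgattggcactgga
Sycp1 promoter (chr3:102936101-102936330, minus strand): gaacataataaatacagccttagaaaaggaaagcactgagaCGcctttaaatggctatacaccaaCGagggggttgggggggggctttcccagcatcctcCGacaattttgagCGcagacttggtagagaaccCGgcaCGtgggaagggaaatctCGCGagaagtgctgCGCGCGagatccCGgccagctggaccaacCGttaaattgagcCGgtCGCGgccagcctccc
The next 3 belong to members with no *Hells* cKO peak at any start, and show that their promoters were also rich in CpG.
Psmc3ip promoter (chr11:101095437-101095666, minus strand): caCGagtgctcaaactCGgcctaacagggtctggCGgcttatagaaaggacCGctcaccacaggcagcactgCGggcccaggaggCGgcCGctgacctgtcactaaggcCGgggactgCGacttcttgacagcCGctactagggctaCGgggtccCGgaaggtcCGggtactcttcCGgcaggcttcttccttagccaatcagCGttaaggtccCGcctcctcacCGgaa
Brca2 promoter (chr5:150522414-150522643, plus strand): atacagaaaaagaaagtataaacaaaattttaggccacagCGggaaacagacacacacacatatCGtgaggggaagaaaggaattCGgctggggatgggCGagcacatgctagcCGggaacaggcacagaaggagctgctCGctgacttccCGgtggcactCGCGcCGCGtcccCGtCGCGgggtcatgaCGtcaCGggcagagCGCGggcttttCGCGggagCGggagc
Msh5 promoter (chr17:35046727-35046956, minus strand): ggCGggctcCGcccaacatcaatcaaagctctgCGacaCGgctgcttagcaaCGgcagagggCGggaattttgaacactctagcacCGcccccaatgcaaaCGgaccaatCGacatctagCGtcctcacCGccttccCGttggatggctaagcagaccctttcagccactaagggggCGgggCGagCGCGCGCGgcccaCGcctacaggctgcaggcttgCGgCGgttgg
For contrast, the last line holds the 100 bases around the center of the strongest *Hells* CTRL peak in any member, inside an intron of *Tex11*, where there was no CpG.
Tex11 Hells CTRL peak center (chrX:100879329-100879428, plus strand): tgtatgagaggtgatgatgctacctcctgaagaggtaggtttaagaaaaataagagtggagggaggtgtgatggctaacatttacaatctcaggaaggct
The printed promoters held 12 CpG (*Syce1*), 19 (*Dazl*), 12 (*Mei4*), 16 (*Sycp1*), 17 (*Psmc3ip*), 21 (*Brca2*) and 21 (*Msh5*). The promoters with and without a peak thus did not separate by the number of CpG in these 230 bases.

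In *Hells* cKO testes, DMC1 peaks lay at the start sites of most recombination and synapsis genes. A start-site peak was present in 36 of 41 genes (87.8%, exact 95% confidence interval 73.8 to 95.9), against 9925 of 21755 protein-coding genes (45.6%). In *Hells* CTRL testes, 1 of 41 genes had one (*Trip13*, 2.44%, interval 0.0617 to 12.9), against 2.70% of protein-coding genes (587 of 21755). The intervals are Clopper-Pearson intervals that cover counting error only, and no test was run, because genes of 1 list are not replicates. The member share lay near the genome share in *Hells* CTRL and above it in *Hells* cKO.

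The same count was made for 3 other gene lists. Of 27 other genes of the recombination pathway, 24 had a *Hells* cKO start-site peak (88.9%, interval 70.8 to 97.6). Of 33 genes listed as genes of postmeiotic spermatids, such as the protamine genes *Prm1* and *Prm2*, 6 had one (18.2%, interval 6.98 to 35.5). The stage at which each of these 33 is transcribed was not checked. Of 20 markers of somatic testis cells, such as *Sox9* of Sertoli cells, 3 had one (15%, interval 3.21 to 37.9). The counts in *Hells* CTRL were 2 of 27, 0 of 33 and 0 of 20. For start-site peaks in *Hells* cKO, both lists of recombination genes stood above the genome share, and the spermatid and somatic lists stood below it. For *Hells* cKO gene-body peaks, the somatic markers stood above it (6 of 20, 30%, against 10.3%). The lists hold 20 to 41 genes and were chosen with earlier results of these data known. The CpG content of the 3 other lists was not compared, and a link to gene use was not tested.

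**Figure D1:**
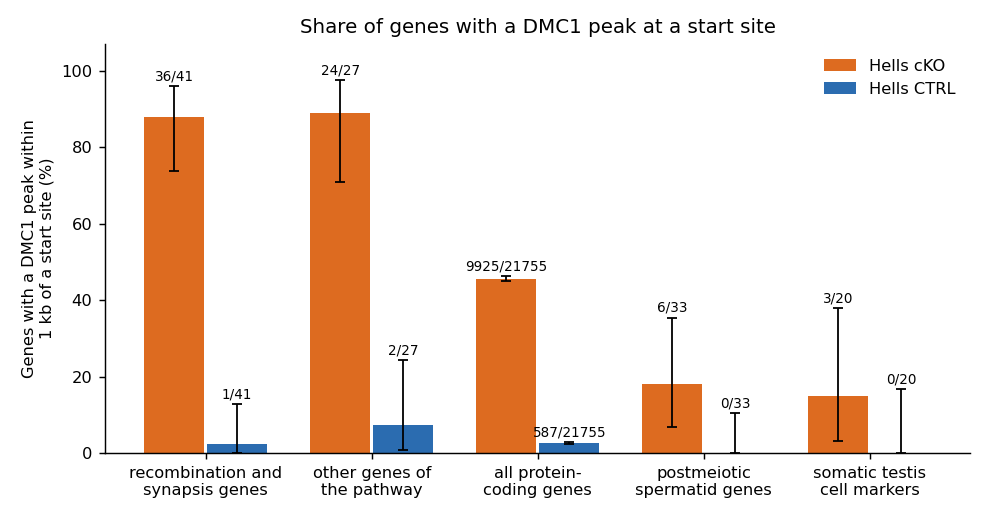
Share of genes (%, vertical axis from 0) with a DMC1 peak centered within 1 kb of a start site, for 5 gene sets in *Hells* cKO (orange) and *Hells* CTRL (blue). Bars are counts over set size (printed above), and error bars are exact 95% intervals of counting error. The recombination and synapsis genes stand at 87.8% in *Hells* cKO and 2.44% in *Hells* CTRL.

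The *Hells* cKO peaks at the members lay mostly in the upper part of their list. The strongest start-site peak of each of the 36 genes had a median percentile of 82.9 (quartiles 57.8 and 89.7, range 5.23 to 97.0), and a median strength of 85 (range 11 to 202). Over all 9925 protein-coding genes with a start-site peak the medians were 67.1 and 48. The order-statistic 95% interval of the members' median percentile was 62.3 to 88.7, which includes the 67.1 of all genes, and 28 of the 36 (77.8%) lay at or above the middle of the list, against 68.6%. Start-site peaks at or above the 90th percentile (a strength of 120 or more) were found in 8 of 41 members (19.5%). The exact interval was 8.82 to 34.9, and the share of protein-coding genes was 8.11%. Those shares also count genes with no peak. Among genes with a start-site peak, the counts were 8 of 36 members and 1764 of 9925 protein-coding genes. The 8 members were *Syce1*, *Dazl*, *Mei4*, *Stra8*, *Ddx4*, *Terb1*, *Syce2* and *Sycp1*, which come from 5 of the 9 groups of members described below.

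**Figure D2:**
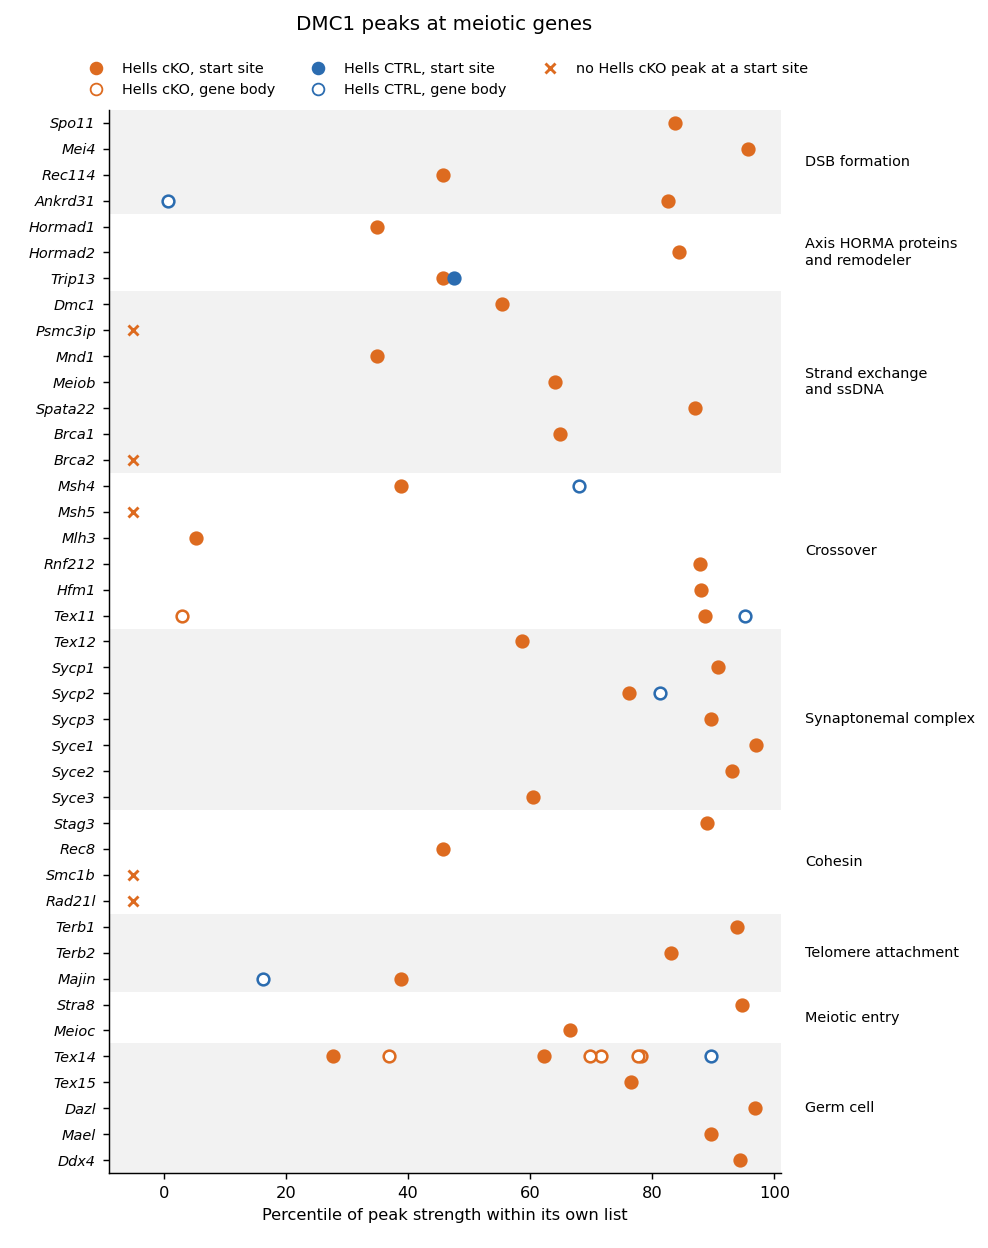
Percentile of peak strength within its own list (horizontal axis, 0 to 100) for every DMC1 peak in the 41 genes, grouped by role. Filled circles are start-site peaks and open circles gene-body peaks (orange for *Hells* cKO, blue for *Hells* CTRL), and crosses mark the 5 genes with no *Hells* cKO start-site peak. Filled orange circles fill the right side of the plot, and the 7 blue circles belong to 7 genes.

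The members are described in groups of 2 to 7 genes. The count of each group stands beside 87.8% of all members and 45.6% of protein-coding genes with a *Hells* cKO start-site peak. All 4 DSB formation genes had a *Hells* cKO start-site peak. *Mei4*, which encodes a partner of SPO11 needed for DSBs, had the strongest of the group (chr9:81862758-81864955, strength 177, percentile 95.7), centered 147 bp downstream of a start. *Spo11* itself, the gene of the enzyme that cuts DNA, had a peak of strength 88 (percentile 83.7), centered 288 bp downstream in the first part of the gene. *Ankrd31*, whose product acts with REC114, followed with 84 (percentile 82.6), and *Rec114*, the gene of a partner of MEI4, was lower with 28 (percentile 45.7), centered 287 bp upstream of its principal start. These 4 peaks thus ranged from the middle of the list to its upper end.

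Among the genes for the HORMA-domain proteins of the axis and their remodeler, the peaks were weaker. *Hormad2* had a peak of strength 91 (percentile 84.3), and *Hormad1* one of 22 (percentile 34.9). *Trip13*, the gene of the ATPase that removes HORMAD proteins from synapsed axes, had one of 28 (percentile 45.7), which also lay within 1 kb of a start of *Brd9*. The median percentile of these 3 was 45.7, the lowest of the 9 groups.

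*Trip13* was the single member with a *Hells* CTRL start-site peak (chr13:73934820-73936755, strength 59, percentile 47.5). Its center lay 410 bp downstream of an alternative start, 1997 bp downstream of the principal start and in an intron. The *Hells* cKO peak (chr13:73936755-73938468) was centered 173 bp downstream of the principal start, 1824 bp from the *Hells* CTRL center. The 2 intervals met at their edges, and the sequence within 250 bp of the centers held 7 CpG under the *Hells* CTRL peak and 60 under the *Hells* cKO peak. These were different positions at 1 gene, so that no member had a start-site peak at the same place in both lists.

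Of the 7 genes for strand exchange and single-strand DNA, 5 had a *Hells* cKO start-site peak. *Spata22*, whose product works with the single-strand DNA-binding protein MEIOB, had the strongest (strength 102, percentile 86.9), at a place within 1 kb of starts of *Aspa* and of Gm49340. *Brca1* followed with 45 (percentile 64.9), centered 690 bp upstream of a start and shared with *Nbr1*, and *Meiob* with 44 (percentile 64.1). *Dmc1*, the gene of the immunoprecipitated protein itself, had a peak of strength 35 (percentile 55.3) centered 462 bp downstream of a start. *Mnd1*, the gene of a DMC1 cofactor, had 22 (percentile 34.9), and *Psmc3ip* (HOP2), which encodes the other subunit of that cofactor, had none. The remaining gene with no peak was *Brca2*, whose product loads recombinases on single-strand DNA. The 2 subunits of 1 complex thus differed, although both genes had many CpG at the start (32 within 250 bp for *Mnd1* and 38 for *Psmc3ip*).

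Of the 6 crossover genes, 5 had a *Hells* cKO start-site peak, and these fell into high and low values. *Tex11*, on chromosome X, had 112 (percentile 88.7) centered 2 bp upstream of a start, *Hfm1*, which encodes a helicase, had 108 (percentile 88.1), and *Rnf212*, which encodes a SUMO or ubiquitin ligase of crossover sites, had 106 (percentile 87.7). *Msh4* had 24 (percentile 38.9), and *Mlh3* had 11 (percentile 5.23), the weakest start-site peak of any member. *Msh5* had none, while its product pairs with that of *Msh4*.

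All 7 genes of the synaptonemal complex had a *Hells* cKO start-site peak, each in the upper part of the list. The median percentile was 89.7 (range 58.6 to 97.0). Of all members with a peak, 77.8% lay at or above the middle of the list, against 68.6% of protein-coding genes with one. *Syce1*, which encodes a central element protein, had the highest percentile of all members (chr7:140786668-140788645, strength 202, percentile 97.0, rank 512 of 17117), centered 181 bp downstream of a start. *Syce2*, also of the central element, had 145 (chr8:84871508-84873533, percentile 93.0), centered 82 bp downstream of a start, *Syce3* had 40 (percentile 60.5), and *Tex12*, whose product binds SYCE2, had 38 (percentile 58.6). For the axial elements, *Sycp3* had 118 (percentile 89.7), centered 534 bp upstream of its start, and *Sycp2* had 65 (percentile 76.1). The central element genes alone therefore spanned the whole range of the group.

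*Sycp1* encodes the transverse filament that joins the axes, and its *Hells* cKO peak (chr3:102934534-102936773) had a strength of 126 and a percentile of 90.8. The center lay 437 bp downstream of a start. The study used a PCR site at this promoter, and its primers are shown because they place that site on the promoter. The sequence of pSycp1-R is part of the promoter printed above, and pSycp1-F lies beyond its end, downstream of the start.
pSycp1-F: aagacgacatggaacggaac
pSycp1-R: ttgagcgcagacttggtaga
The primers matched GRCm38.p6 at chr3:102936032-102936222, a product of 191 bp with its midpoint 27 bp upstream of the principal start. The product lay inside the *Hells* cKO interval, with its midpoint 474 bp from the peak center. The nearest *Hells* CTRL peak to a start of *Sycp1* was 138866 bp away. The median of this distance was 61.4 kb over the members (range 0.41 to 776) and 66.1 kb over all protein-coding genes.

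Of the 4 cohesin genes, 2 had a *Hells* cKO start-site peak. *Stag3*, the meiotic STAG subunit, had 114 (percentile 89.0), centered 4 bp downstream of a start and shared with starts of *Gpc2* and Gm43720. *Rec8*, the gene of a meiotic kleisin, had 28 (percentile 45.7). *Smc1b* and *Rad21l*, which encode a meiotic SMC protein and another kleisin, had none within 1 kb. All 3 genes of the complex that attaches telomeres to the nuclear envelope had one. *Terb1* had 153 (chr8:104508585-104510642, percentile 93.9), centered 269 bp downstream of a start, *Terb2* had 86 (percentile 83.1) with a start of *Patl2* nearby, and *Majin*, the gene of the membrane subunit, had 24 (percentile 38.9).

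For meiotic entry, *Stra8*, the gene of the factor that starts the meiotic program in response to retinoic acid, had a wide peak (chr6:34919264-34922599, strength 163, percentile 94.7). It was centered 29 bp upstream of 1 start and 768 bp downstream of the principal start. Since the Cre transgene of *Hells* cKO also carries *Stra8* promoter sequence, reads from the transgene and from the endogenous gene cannot be told apart there. *Meioc*, which encodes a factor that prolongs meiotic prophase, had 47 (percentile 66.5). Both genes of this group thus had a peak above the middle of the list.

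All 5 germ cell genes had a *Hells* cKO start-site peak. *Dazl*, the gene of an RNA-binding protein of germ cells, had the widest peak of the members (chr17:50291433-50295004, 3572 bp, strength 196, percentile 96.8). *Ddx4*, which encodes the vasa helicase, had 159 (chr13:112651043-112653256, percentile 94.4), centered 152 bp downstream of a start, and *Mael*, a gene of the piRNA pathway, had 118 (percentile 89.7). *Tex15* had 66 (percentile 76.6), and *Tex14*, which encodes a protein of intercellular bridges, had 42 (percentile 62.3) at a place that is also within 1 kb of a start of *Rad51c*. The peak of *Tex15* was centered 442 bp downstream of its first annotated start and 144 bp upstream of the next, with 55 CpG within 250 bp of the center. Its principal start lay 53364 bp downstream of the peak, with no CpG within 250 bp.

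A total of 5 genes had no *Hells* cKO peak within 1 kb of any start. For *Psmc3ip* the nearest *Hells* cKO peak was 24045 bp away, at the start of *Naglu*, with a strength of 31. For *Msh5* it was 47624 bp away, at the start of *Lsm2*, with 28, and for *Smc1b* it was 103490 bp away with 13. For *Brca2* it was 268105 bp away with 9, near no annotated start. The nearest *Hells* cKO peaks of these 4 genes thus lay 24045 to 268105 bp away, although their principal starts had 38 to 56 CpG within 250 bp. These distances were not set beside those of all genes. *Rad21l* was different, since a strong peak lay 1598 bp upstream of its single annotated start (chr2:151668910-151671353, strength 167, percentile 95.0), with no start of another gene within 1 kb. The sequence within 250 bp of that center held 27 CpG, and that of the annotated start held 3. With a reach of 2 kb instead of 1 kb, 37 of 41 members had a *Hells* cKO start-site peak, against 46.8% of protein-coding genes.

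The position of the peaks on the promoters was like that over all genes. The center lay downstream of the nearest start in 25 of 36 members (69.4%), against 66.0% of protein-coding genes with a start-site peak, and within 500 bp of a start in 34 of 36 (94.4%), against 92.4%. The median distance was 149.5 bp in members and 151 bp over all genes, and the median width was 2219 bp and 2118 bp. A start of another protein-coding gene lay within 1 kb of the center in 6 of 36 (16.7%), against 22.2%. Without the peaks that are shared with another gene, the median percentile of the members was 82.6. The medians of members and genome thus lay close for position and width.

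**Figure D3:**
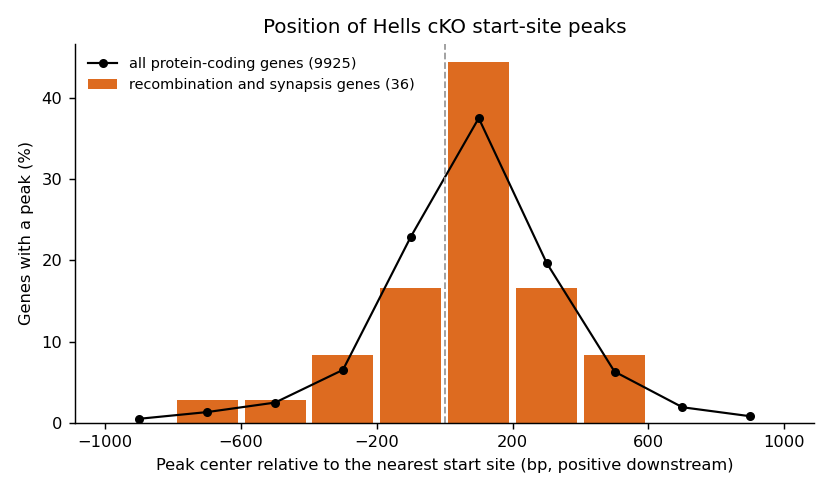
Position of the *Hells* cKO start-site peak relative to the nearest annotated start (bp, positive downstream) in bins of 200 bp, as the share (%) of the 36 members (bars) and of all 9925 protein-coding genes with such a peak (line). Both are highest in the first bin downstream of the start, with 44.4% and 37.5%.

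In *Hells* CTRL, the peaks in these genes lay in the gene body. A *Hells* CTRL gene-body peak was present in 6 of 41 members (14.6%, interval 5.57 to 29.2), against 16.4% of protein-coding genes. All 6 peaks were in introns. *Tex11* had the strongest (chrX:100878342-100880417, strength 520, percentile 95.2), 180260 bp downstream of the principal start, and its center sequence is printed above. *Tex14* had 328 (chr11:87419679-87421394, percentile 89.6), and *Sycp2* had 207 (chr2:178404150-178406461, percentile 81.2), centered 2117 bp downstream of a start. *Msh4* had 117 (chr3:153899426-153901263, percentile 68.0), 4387 bp downstream of a start. The peaks of *Majin* and *Ankrd31* were weak, with 26 (chr19:6214407-6215694, percentile 16.3) and 15 (chr13:96823940-96825629, percentile 0.723). Of the 7 members with any *Hells* CTRL peak, *Trip13* included, all 7 also had a *Hells* cKO start-site peak, beside 87.8% of all members and 65.2% of the 4001 protein-coding genes with any *Hells* CTRL peak.

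The members are longer than most genes, with a median of 37547 bp against 17414 bp, and length bears on how many gene-body peaks a gene can hold. Among genes of 60 kb and over, 4 of 14 members had a *Hells* CTRL gene-body peak (28.6%), against 53.9%. From 20 to 60 kb it was 2 of 15 (13.3%) against 16.5%, and below 20 kb 0 of 12 against 2.70%. Per 100 kb of gene, members held 0.255 *Hells* CTRL gene-body peaks, against 0.511 over all protein-coding genes. The share of the 14 long members was thus lower than that of the genome, on small counts. Lengths were not matched within this class, which has no upper limit. The longest member had 342338 bp, and the longest protein-coding gene had 4434882 bp.

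*Hells* CTRL and *Hells* cKO peaks did not coincide in any member. The study called centers within 400 bp common, and none of the 37 *Hells* cKO start-site peaks had a *Hells* CTRL center that near (median 63.1 kb, range 1.82 to 776). Over all protein-coding genes, 197 of 9303 such peaks had one (2.12%, median distance 59.8 kb), so a count of 0 among 37 peaks is close to the genome share. After *Trip13*, the closest pairs were in *Sycp2*, 2210 bp apart with intervals that overlapped, and in *Tex14*, 2337 bp apart. The centers in *Msh4* were 5377 bp apart, and those in *Tex11* 9085 bp apart. Base composition differed between these sets of peaks. Within 250 bp of the centers there was a median of 30 CpG under the *Hells* cKO start-site peaks (range 6 to 60). It was 2 under the 7 *Hells* CTRL peaks (range 0 to 7), of which 6 lay in gene bodies. Centers of *Hells* cKO gene-body peaks held 2 CpG in *Tex11* and 18 to 47 in *Tex14*. List and position were therefore not separated here, and the values were not set beside those of all peaks. The fewest CpG under a start-site peak of *Hells* cKO were at *Sycp3*, with 6, and the most under a *Hells* CTRL peak were at *Trip13*, with 7.

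*Hells* cKO gene-body peaks were found in 2 of 41 members (4.88%), against 10.3% of protein-coding genes. *Tex11* had 1 of strength 10 (percentile 3.03) in an intron. *Tex14* had 5, of strengths 23, 70, 55, 69 and 52 in the order of transcription, in addition to start-site peaks of 42 and 19. Members held 0.255 *Hells* cKO gene-body peaks per 100 kb, and 0.0453 without *Tex14*, against 0.296 over all genes. The members' gene-body signal in the mutant was therefore mostly that of 1 gene.

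Inside *Tex14* the annotation places 7 short genes of small nuclear RNAs (snRNA) and small nucleolar RNAs (snoRNA). Of these, 6 had a *Hells* cKO peak centered within 1 kb of them. Over all annotated snRNA and snoRNA genes on chromosomes 1 to 19 and X, 108 of 2865 had one (3.77%). That background was not matched by RNA family, so it may hold genes of other kinds. *Tex14* is also the member with the most *Hells* cKO gene-body peaks, so its small RNA genes are not an unselected sample to set beside that share. The 4 U3 snoRNA genes were *Rnu3b1* (strength 70), *Rnu3b3* (55), *Rnu3b4* (69) and *Rnu3b2* (52), with centers 6 to 217 bp from the gene's midpoint. The U1 snRNA gene *Rnu1a1* had a peak of strength 23 with its center 75 bp away, and the snRNA gene Gm22068 had the peak of strength 19, which also counts as a start-site peak of *Tex14* through an alternative start. Gm23137 had none within 1 kb. All 5 *Hells* cKO gene-body peaks of *Tex14* thus lay at small RNA genes. These are members of multicopy families, so the assignment of reads to single copies is uncertain. The *Hells* CTRL peak of *Tex14*, 15471 bp from the principal start, was at none of them.

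**Figure D4:**
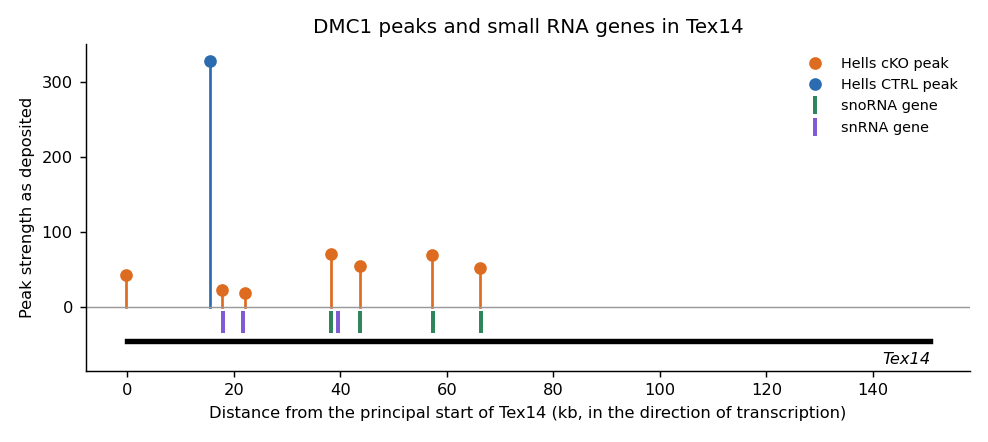
DMC1 peaks along *Tex14*, drawn to scale from its principal start (kb, horizontal axis), with peak strength as deposited (vertical axis, not on a common scale between genotypes) for *Hells* cKO (orange) and *Hells* CTRL (blue). Ticks mark snoRNA (green) and snRNA (purple) genes. The 4 orange peaks of strength 52 to 70 stand over the 4 snoRNA genes, and the blue peak of strength 328 stands apart.

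CpG content was compared because *Hells* cKO peaks followed it over the genome. Within 250 bp of the principal start, protein-coding genes with a *Hells* cKO start-site peak had a median of 39 CpG, and those without had 9. The members did not follow that split: the 36 with a peak had a median of 31.5 (range 0 to 59), and the 5 without had 41 (range 3 to 56). Of members with 25 CpG or more, 29 of 33 had a peak (87.9%, interval 71.8 to 96.6), against 71.1% of such protein-coding genes. Of members with 10 to 24 CpG, all 6 had one (*Rec114*, *Msh4*, *Syce3*, *Rec8*, *Stra8* and *Terb2*), against 37.9%, and of those with 9 or fewer, 1 of 2 had one, against 7.51%. That 1 gene was *Tex15*, which is classed by a principal start far from its peak, while the peak center held 55 CpG. The share in the highest class was therefore nearer to the genome share than the overall 87.8% against 45.6%, since 80.5% of members and 51.4% of protein-coding genes were in that class. Across the 36 members, Spearman's rho between CpG number and percentile was 0.0814, and across all 9925 genes 0.220; these are descriptions across genes of 1 list.

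**Figure D5:**
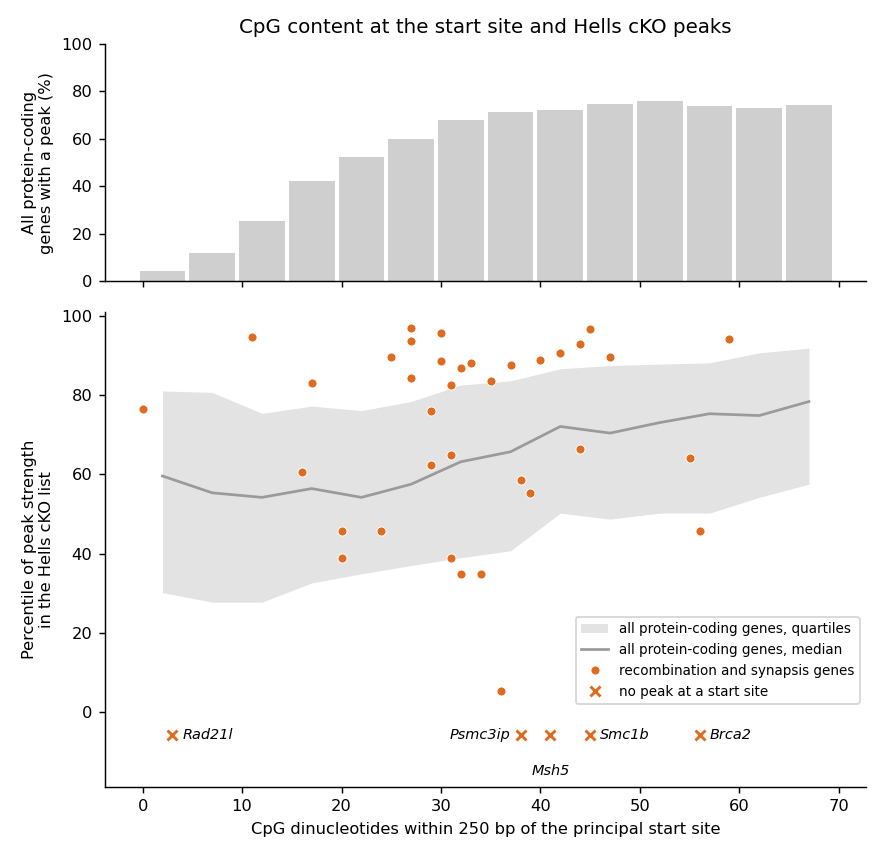
Upper panel, share (%) of protein-coding genes with a *Hells* cKO start-site peak by the number of CpG within 250 bp of the principal start, in bins up to 69 CpG. Lower panel, percentile of the peak in the *Hells* cKO list for members (orange circles; crosses for the 5 without a peak) over the median (line) and quartiles (band) of all protein-coding genes in the same bins. Most circles lie above the line, and 4 of the 5 crosses lie at 38 CpG or more.

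Sequence words known from promoters of germ cell genes were counted on both strands, from 250 bp before to 50 bp after the principal start. The E-box CACGTG was present in 10 of 41 members (24.4%), against 7.78% of protein-coding genes, and all 10 had a *Hells* cKO start-site peak. Those were *Rec114*, *Hormad1*, *Meiob*, *Rnf212*, *Tex12*, *Sycp1*, *Sycp3*, *Stag3*, *Mael* and *Ddx4*. The E2F core GCGGGAA was present in 17 (41.5%), against 6.09%, and 14 of the 17 had a peak. The STRA8 word CNCCTCAG was present in 7 (17.1%), against 8.49%, and 6 of the 7 had one, *Stra8* and *Sycp1* among them. Over all protein-coding genes, those with the words had a peak in 61.8%, 70.6% and 49.5%. Among members with the words it was 100%, 82.4% and 85.7%, beside 87.8% of all 41 members. CACGTG and GCGGGAA each hold a CpG, and 80.5% of members against 51.4% of protein-coding genes had 25 CpG or more. The word shares were not matched for CpG content. Presence of a word is a description of the letters in this window and not of a bound site, and in *Brca2*, *Msh5* and *Smc1b* the E2F core was present with no peak.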

How the data were processed

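DMC1 ChIP-SSDS was measured in *Hells* CTRL and *Hells* cKO testes, with 2 replicates per genotype. The other 10 libraries of the series (5hMeDIP and input) were not analysed here. The authors mapped trimmed reads to GRCm38/mm10, kept unique, non-duplicated reads, called peaks with MACS, tested reproducibility by IDR and kept the top peaks of the merged replicates. The deposited score of each peak is its strength, described as a fragment count normalized to local background and library size. All strengths are whole numbers, so the library-size step may be scaled or left out, and the depth is unknown.

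Centers, percentiles (equal strengths share the mean rank) and distances were computed with Python 3.11.15, numpy 2.4.6, scipy 1.17.1 and matplotlib 3.10.9, using GENCODE M21 starts of all transcripts and the GRCm38.p6 sequence. The code was tested on simulated peaks. The members, gene lists and words were chosen with earlier results of these data known. All members are accounted for. Given in full were those at or above the 90th percentile, those with no *Hells* cKO start-site peak, those with a *Hells* CTRL peak, *Sycp1* and *Stra8*. The alternatives were other reaches, fewer starts, interval overlap, stronger peaks, the nearest peak, unshared peaks and the autosomes alone.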

Additional observations from a re-analysis of the deposited data

How the results depend on the processing

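Of 27 alternative values, 23 stayed near the reported one, with counts taken as near within 1.5 times. The number of members with a *Hells* cKO start-site peak was 28 with peaks at or above the median strength, against 31.3% of protein-coding genes. Under the others it was 34 to 37, against 42.0% to 46.8%. The median percentile was 82.6 to 83.1, against 64.1 to 67.8 over all protein-coding genes with a peak. The members with a *Hells* CTRL gene-body peak were 4 with peaks at or above the median strength, against 9.91% of protein-coding genes. Under the others they were 6, against 15.2% to 17.0%. The single *Hells* CTRL start-site peak, at *Trip13*, fell to 0 with 1 principal start per gene, to 0 with starts of protein-coding transcripts alone (its start is that of another transcript), and to 0 with peaks at or above the median strength. Over all protein-coding genes these settings gave 1.08%, 1.66% and 1.19%. The members with a *Hells* cKO gene-body peak fell from 2 to 1 with peaks at or above the median strength, because the *Tex11* peak is weaker than that. The share of protein-coding genes under that setting was 4.19%. No paired analysis was possible because the authors merged the replicates of each genotype into 1 list, and for the same reason no replicate could be left out. Depth is unknown, so a gene with no peak may hold signal under the threshold of the list.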

Other observations

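Among the 27 other genes of the recombination pathway, the *Hells* cKO start-site peak with the highest percentile was at *Spdya*, whose product activates CDK2 at telomeres (strength 255, percentile 98.5). The cohesin genes *Smc3* and *Rad21*, which are also used outside meiosis, had 194 (percentile 96.7) and 174 (percentile 95.5). *Zcwpw1*, the gene of a reader of the marks that PRDM9 makes, had 192 (percentile 96.6), and *Ccnb1ip1* (HEI10), a crossover gene, had 176 (percentile 95.7). The median percentile of the 24 genes with a peak was 63.6 (order-statistic 95% interval 47.2 to 83.4). That of the members was 82.9 (62.3 to 88.7), and each interval includes the other median. Of the 24 peaks, 11 (45.8%) lay within 1 kb of a start of another protein-coding gene, against 22.2% over all protein-coding genes with a peak. No peak within 1 kb of a start was present for *Iho1* (listed as *Ccdc36*), *Prr19* and *Shoc1* (listed as AI481877). The *Hells* CTRL list had start-site peaks at *Zcwpw1* (strength 104, percentile 64.8) and at *Top6bl*, listed as Gm960, the partner subunit of SPO11 (strength 23, percentile 11.5).

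In the lists that stood below the genome share, the 6 spermatid genes with a *Hells* cKO start-site peak included *Zpbp* (strength 152, percentile 93.8) and *Catsper2* (strength 128). The somatic markers with a peak were *Gata4* (15, percentile 16.9), *Nr5a1* (18, percentile 25.2) and *Myh11* (25, percentile 40.7), all below the middle of the list.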
